A study of Mus musculus with 12 samples.

Results

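Alpha and delta cell identity genes were followed in mouse pancreatic islets through 7 named genes: Irx1, Irx2, Pou3f4, Ttr and Gc of alpha cells, and Hhex and Rbp4 of delta cells. Members were all probe sets whose single gene symbol was 1 of these names. That gave 6 genes of the 17097 measured, and 8 probe sets of the 28898 with a single symbol. Each of the 6 genes passed the filter on mean level and was among the 12825 tested. Gc, the vitamin D-binding protein, was not analysed here.

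The study measured islet RNA on Affymetrix arrays in 4 genotypes, with 3 arrays each and 12 in all. The genotypes were hIAPP/BACE2-KO (a human islet amyloid polypeptide transgene together with lack of BACE2), BACE2-KO (lack of BACE2 alone), hIAPP (the transgene alone) and WT (wild type). The human polypeptide is the one that islet amyloid is made of, and beta cells use the aspartyl protease BACE2 on their surface proteins. Every mouse was 12 weeks old and ate standard chow, and all groups, WT included, carry the strain name B6;129P2-Bace2tm1Bdes/J. The promoter that drives the transgene is not given in the sources used here. Nor is it stated whether islets of several mice shared an array, so the spread behind each p-value is that between arrays and may be technical.

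An islet holds several endocrine cell types, each with its own main hormone: insulin in beta cells, glucagon in alpha cells and somatostatin in delta cells. Each type is also known by transcription factors that keep its gene program. The Iroquois homeobox factors Irx1 and Irx2 and the POU-domain factor Pou3f4 (also called Brn4) mark alpha cells among islet endocrine cells, and Ttr, a carrier of thyroid hormone and of retinol-binding protein, is a strong alpha cell transcript. Hhex, a homeobox factor that mouse delta cells need to keep their identity, and Rbp4, the retinol-binding protein, mark delta cells.

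Array medians ran from 4.22 to 4.35 on the deposited log2 scale, on which all levels below are given, and highest values from 13.93 to 14.03. The hormones of both cell types were strongly present: Gcg, the glucagon gene, lay between 13.05 and 13.22 and Sst, the somatostatin gene, between 12.14 and 12.87 over the 12 arrays. Such levels lie near the top of the scale. The transcript of Bace2 lay between 10.65 and 11.18 over the 12 arrays, and BACE2-KO differed from WT in it by -0.15 (adjusted p = 0.941). The position of its probes relative to the deletion could not be read, so directions rest on the labels. In whole islets, fewer cells of a type and less RNA per cell cannot be told apart.

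Loss of BACE2 was compared with its presence in islets without the transgene (BACE2-KO against WT), in islets with it (hIAPP/BACE2-KO against hIAPP), and averaged over both. The averaged difference was above 0 in 4 of 4 alpha cell members tested, with a median of 0.39 log2, and in 1 of 2 delta cell members, with a median of 0.02. None of the 6 passed the test in limma at an adjusted p under 0.05 over all genes, against 0.92% of all genes. At an unadjusted p under 0.05 there were 3 members, Irx1, Irx2 and Ttr, against 11.4% of all genes. Across the 6 members, 5 lay above 0 and the median was 0.22, against 0.02 over all genes tested, of which 55.6% lay above 0. BACE2-KO replicate 1 stood apart in several of these genes, and without it 6 of 6 lay above 0, with a median of 0.34. Without that array the medians were 0.44 for the alpha cell members and 0.22 for the delta cell members, 2 of 2 of which then lay above 0.

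**Figure D1:**
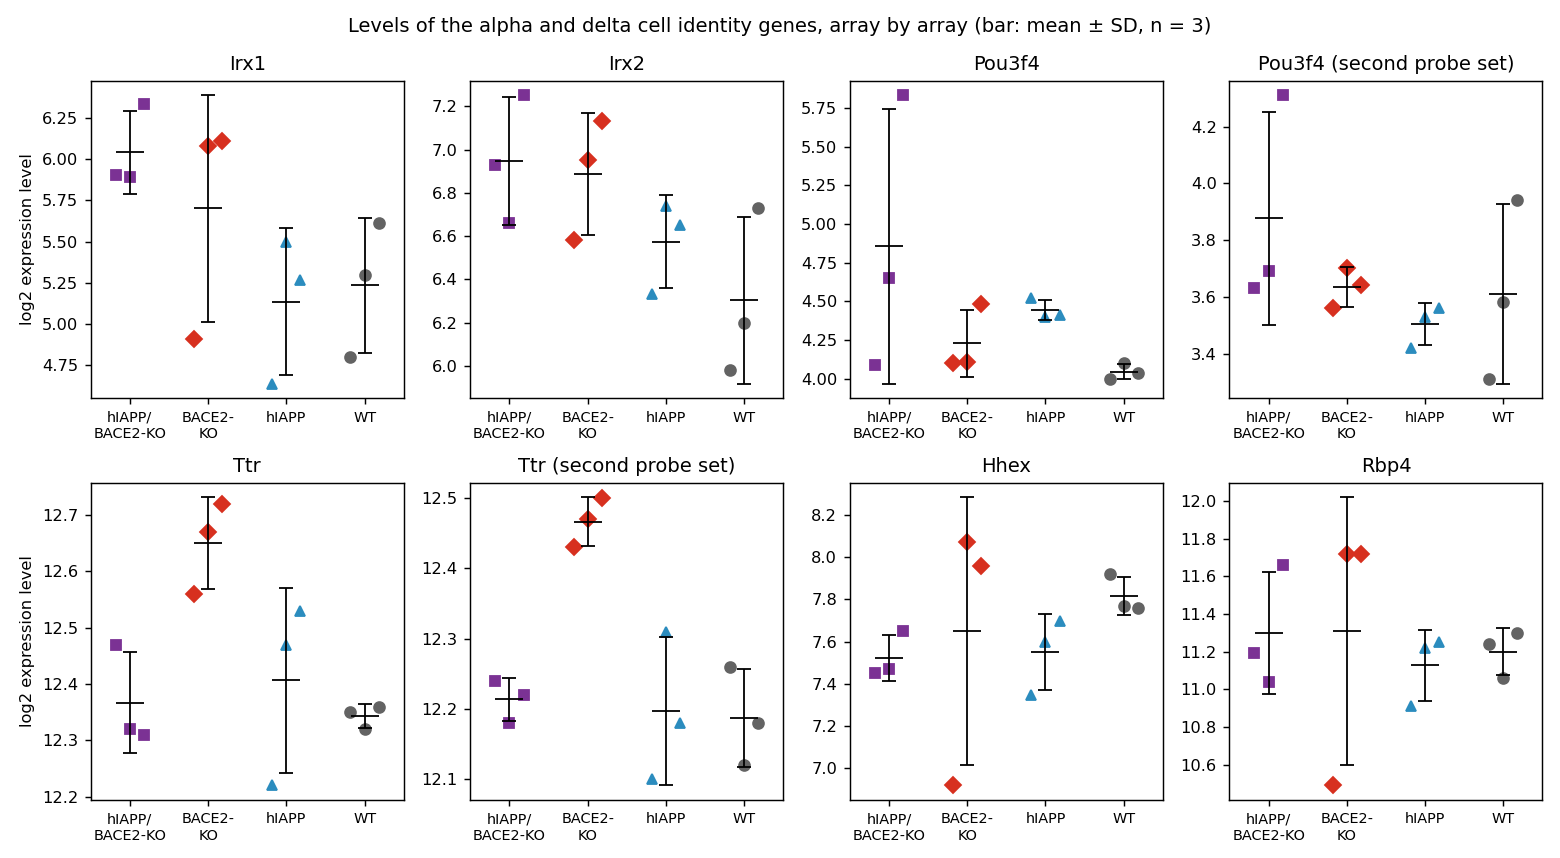
Log2 level of each of the 8 probe sets of the 6 genes in the 12 arrays, by genotype. Points are arrays and bars group means ± SD. Irx1 and Irx2 averaged highest in both genotypes that lack BACE2, Ttr averaged highest in BACE2-KO islets, and BACE2-KO replicate 1 was the lowest of all arrays in Hhex and Rbp4.

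Irx1 measured 5.90, 5.89 and 6.33 in hIAPP/BACE2-KO arrays, 4.91, 6.08 and 6.11 in BACE2-KO, 4.64, 5.50 and 5.27 in hIAPP, and 4.80, 5.30 and 5.61 in WT arrays. All hIAPP/BACE2-KO arrays lay above all hIAPP and all WT arrays, while the BACE2-KO group overlapped WT because its replicate 1 was low. Group means ran in the order hIAPP/BACE2-KO (6.04 ± 0.25, mean ± SD, n = 3 here and below), BACE2-KO (5.70 ± 0.68), WT (5.24 ± 0.41) and hIAPP (5.14 ± 0.45), and no neighbours in that order differed beyond their spread. The averaged difference was 0.68 (SE 0.23, 95% interval 0.18 to 1.19, adjusted p = 0.26). It was 0.90 between hIAPP/BACE2-KO and hIAPP (SE 0.33, adjusted p = 0.457) and 0.46 between BACE2-KO and WT (SE 0.33, adjusted p = 0.948). Without BACE2-KO replicate 1, the difference of BACE2-KO from WT was 0.86 (adjusted p = 0.618).

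Irx2, which shares chromosome 13 with Irx1 in the RefSeq annotation of GRCm38.p6, with 0 protein-coding genes between them, showed the same order of means with hIAPP and WT exchanged. It measured 6.93, 6.66 and 7.25 in hIAPP/BACE2-KO arrays, 6.58, 6.95 and 7.13 in BACE2-KO, 6.33, 6.74 and 6.65 in hIAPP, and 5.98, 6.20 and 6.73 in WT arrays. Both BACE2-deficient groups reached higher than their counterparts, and each overlapped its counterpart in at least 1 array. Means were 6.95 ± 0.30 in hIAPP/BACE2-KO, 6.89 ± 0.28 in BACE2-KO, 6.57 ± 0.22 in hIAPP and 6.30 ± 0.39 in WT islets, again with no neighbours apart beyond their spread. The averaged difference was 0.48 (SE 0.15, 95% interval 0.15 to 0.81, adjusted p = 0.221). It was 0.58 in BACE2-KO against WT (SE 0.22, adjusted p = 0.701) and 0.37 in hIAPP/BACE2-KO against hIAPP (adjusted p = 0.701).

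**Figure D2:**
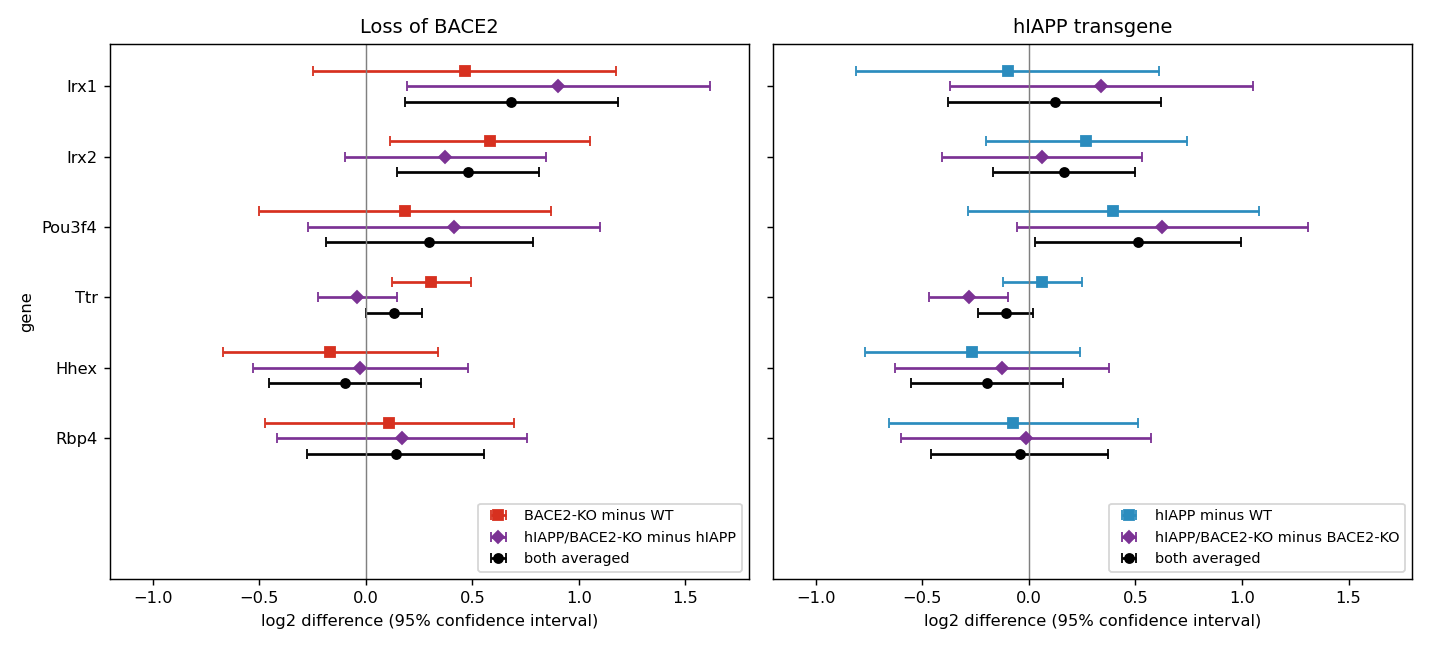
Log2 differences of the 6 genes with 95% confidence intervals from limma, for loss of BACE2 (left) and for the transgene (right), each in both backgrounds and averaged. The averaged intervals of Irx1, Irx2 and Ttr for loss of BACE2 lie above 0, as does that of Pou3f4 for the transgene, and none of these differences passed the test over all genes.

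Levels of Irx1 and Irx2 followed each other over the arrays. Pearson's r was 0.862 over 12 arrays (100000 permutations, two-sided p = 0.00023, 0.00345 after adjustment over the 15 pairs of members) and Spearman's rho was 0.916 (adjusted permutation p = 0.0009). It was 0.824 without the arrays farthest from the median of Irx1 (hIAPP replicate 1 and hIAPP/BACE2-KO replicate 3). Measured as deviations from each genotype's mean, r was 0.866, so the arrays within a genotype also varied together in both genes. All points share the arrays and their normalization. Gcg itself gave r of 0.454 with Irx1 and 0.438 with Irx2 (adjusted permutation p = 0.36 for both, in a family of 18 relations). Sst of delta cells gave 0.603 and 0.314 (adjusted permutation p = 0.201 and 0.528). Within genotypes, r of Irx1 was 0.822 with Sst, 0.845 with Rbp4 and 0.772 with Hhex, against 0.445 with Gcg. For Irx2 these values were 0.500, 0.701, 0.489 and 0.234. Varying together within genotypes was therefore not particular to pairs of 1 cell type.

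The averaged differences of both Iroquois genes stood beside a varying amount of exocrine RNA. The mean level of 15 acinar genes ran from 9.13 to 9.82 in hIAPP/BACE2-KO, from 9.75 to 10.91 in BACE2-KO, from 8.84 to 9.64 in hIAPP and from 8.31 to 10.75 in WT arrays. Of these 15 genes, 7 lay above 0 for averaged loss of BACE2 and 0 passed the test in either direction, with 2 at an unadjusted p under 0.05. The 2 backgrounds differed: 14 of 15 lay above 0 in BACE2-KO against WT, against 52.2% of all genes. In hIAPP/BACE2-KO against hIAPP 7 of 15 did, against 57.1%. Without BACE2-KO replicate 1, 5 of 15 lay above 0 in BACE2-KO against WT. Prss1 and Prss3, 2 trypsinogen genes of the list, had averaged differences of 2.52 and 2.80 (SE 0.84 and 0.90, adjusted p = 0.242 and 0.225). Pooled over the 12 arrays, the acinar mean gave r of -0.43 with Irx1 and -0.45 with Irx2 (rho -0.25 and -0.41, adjusted permutation p of r 0.36 for both). Without BACE2-KO replicate 1 and WT replicate 3, the farthest in the acinar mean, r was -0.39 and -0.61. As deviations from genotype means, r was -0.81 for Irx1 and -0.89 for Irx2, given as a description over 12 arrays. With the acinar mean as a covariate, Irx1 rose by 0.86 (SE 0.16, adjusted p = 0.0242) and Irx2 by 0.60 (SE 0.10, adjusted p = 0.0136) on average with loss of BACE2, both past the threshold, against 1.34% of all genes called in that fit. The part of exocrine RNA in the differences was not tested further.

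**Figure D3:**
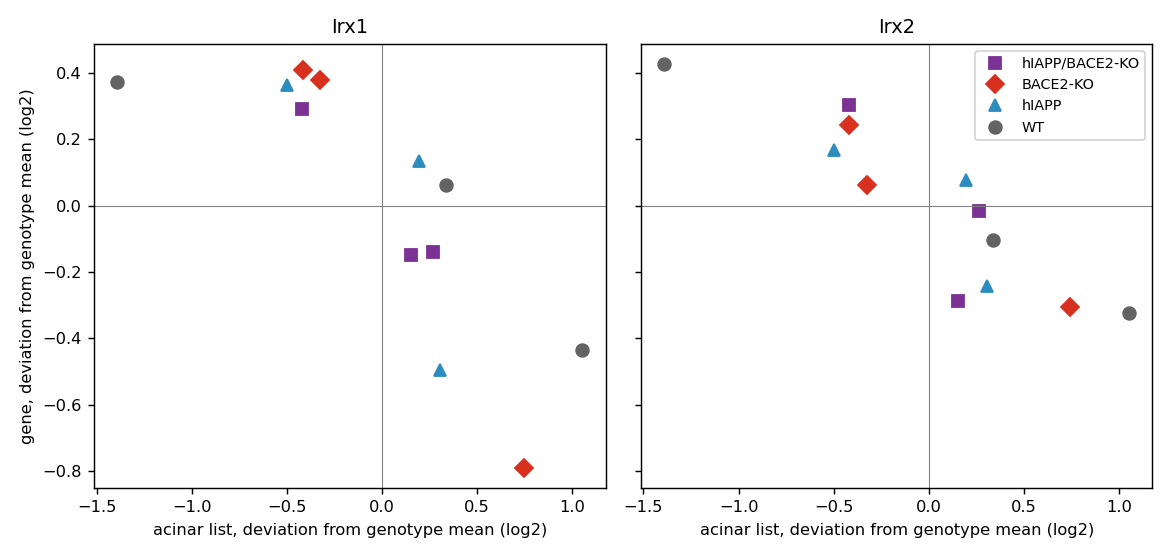
Deviation of Irx1 (left) and Irx2 (right) from the genotype mean, in log2 units, against the deviation of the mean level of 15 acinar genes, for 12 arrays. Arrays above their genotype's acinar mean mostly lay below its mean of Irx1 and Irx2, with r of -0.81 and -0.89.

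Pou3f4 behaved differently from the Iroquois genes. On its stronger probe set it measured 4.09, 4.65 and 5.83 in hIAPP/BACE2-KO arrays, 4.10, 4.11 and 4.48 in BACE2-KO, 4.52, 4.40 and 4.41 in hIAPP, and 4.0, 4.10 and 4.04 in WT arrays. A single array, hIAPP/BACE2-KO replicate 3, stood far above the others, and the 3 hIAPP arrays lay above the 3 WT arrays. The median of this probe set, 4.255, lay within the range of the array medians, 4.22 to 4.35, so its differences are those of a weak signal. Means were 4.86 ± 0.89 in hIAPP/BACE2-KO, 4.23 ± 0.22 in BACE2-KO, 4.44 ± 0.07 in hIAPP and 4.05 ± 0.05 in WT islets. The averaged difference for loss of BACE2 was 0.30 (adjusted p = 0.684), and that for the transgene was 0.51 (95% interval 0.03 to 1.0, adjusted p = 0.644). Without hIAPP/BACE2-KO replicate 3, the difference of hIAPP/BACE2-KO from hIAPP was -0.073, against 0.41 with it, and the averaged differences were 0.055 for loss of BACE2 and 0.27 for the transgene. The second probe set ran from 3.31 to 4.31, next to the filter level of 3.43, and was highest in the same array. On that probe set hIAPP and WT overlapped and differed by -0.11, and the averaged transgene difference was 0.07.

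Ttr was high in every group and varied little. It measured 12.47, 12.32 and 12.31 in hIAPP/BACE2-KO arrays, 12.56, 12.67 and 12.72 in BACE2-KO, 12.22, 12.47 and 12.53 in hIAPP, and 12.35, 12.32 and 12.36 in WT arrays. The 3 BACE2-KO arrays were the highest of all 12, while hIAPP/BACE2-KO, hIAPP and WT overlapped. Means were 12.37 ± 0.09 in hIAPP/BACE2-KO, 12.65 ± 0.08 in BACE2-KO, 12.41 ± 0.16 in hIAPP and 12.34 ± 0.02 in WT islets. BACE2-KO differed from WT by 0.31 (SE 0.09, 95% interval 0.12 to 0.49, adjusted p = 0.385), and hIAPP/BACE2-KO differed from hIAPP by -0.04 (95% interval -0.22 to 0.14, adjusted p = 0.941). Averaged over both, loss of BACE2 gave 0.13 (SE 0.06, adjusted p = 0.426). The difference between these differences, the interaction, was -0.35 (SE 0.12, 95% interval -0.61 to -0.09), with an unadjusted p of 0.0133 and an adjusted p of 0.9995 in limma.

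The second probe set of Ttr was also highest in BACE2-KO islets. It measured 12.24, 12.18 and 12.22 in hIAPP/BACE2-KO arrays, 12.43, 12.47 and 12.50 in BACE2-KO, 12.10, 12.31 and 12.18 in hIAPP, and 12.26, 12.12 and 12.18 in WT arrays. Again all BACE2-KO arrays lay above all others. In a fit of every single-symbol probe set, its difference was 0.28 in BACE2-KO against WT (SE 0.07, adjusted p = 0.26) and -0.25 in hIAPP/BACE2-KO against BACE2-KO (SE 0.07, adjusted p = 0.992). Both probe sets read the same arrays and count as 1 measurement of the islets.

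Among the delta cell genes, Hhex measured 7.45, 7.47 and 7.65 in hIAPP/BACE2-KO arrays, 6.92, 8.07 and 7.96 in BACE2-KO, 7.35, 7.60 and 7.70 in hIAPP, and 7.92, 7.77 and 7.76 in WT arrays. The BACE2-KO group held both the lowest and the highest array of all 12, and the WT arrays lay above all hIAPP and all hIAPP/BACE2-KO arrays. Means were 7.52 ± 0.11 in hIAPP/BACE2-KO, 7.65 ± 0.63 in BACE2-KO, 7.55 ± 0.18 in hIAPP and 7.82 ± 0.09 in WT islets. Differences were -0.17 in BACE2-KO against WT (adjusted p = 0.997), -0.03 in hIAPP/BACE2-KO against hIAPP (adjusted p = 0.991) and -0.10 on average (adjusted p = 0.882). Without BACE2-KO replicate 1, the difference of BACE2-KO from WT turned to 0.20.

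Rbp4 measured 11.19, 11.04 and 11.66 in hIAPP/BACE2-KO arrays, 10.49, 11.72 and 11.72 in BACE2-KO, 10.91, 11.22 and 11.25 in hIAPP, and 11.24, 11.06 and 11.30 in WT arrays. All groups overlapped, and BACE2-KO again held both extremes. Its means, 11.30 ± 0.32 in hIAPP/BACE2-KO, 11.31 ± 0.71 in BACE2-KO, 11.13 ± 0.19 in hIAPP and 11.20 ± 0.12 in WT islets, lay within 1 SD of each other. The averaged difference for loss of BACE2 was 0.14 (adjusted p = 0.848). Without BACE2-KO replicate 1, Rbp4 differed between BACE2-KO and WT by 0.52 (SE 0.16, adjusted p = 0.579) and on average by 0.34 (SE 0.11, adjusted p = 0.232).

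BACE2-KO replicate 1 stood apart in the somatostatin gene as well, with 12.14 in Sst against 12.87 and 12.80 in the other BACE2-KO arrays and 12.38 to 12.72 in the other genotypes. The same array had the highest acinar mean of the 12, at 10.91, and its part in the delta cell differences was not tested beyond leaving it out. Sst averaged 12.61 in hIAPP/BACE2-KO, 12.60 in BACE2-KO, 12.58 in hIAPP and 12.64 in WT islets. Over the 12 arrays, Hhex followed Rbp4 (r = 0.844, adjusted permutation p = 0.006, rho 0.795, adjusted permutation p = 0.0232), Sst followed Hhex (r = 0.916, adjusted permutation p = 0.00126, rho 0.767, adjusted permutation p = 0.0426), and Sst followed Rbp4 (r = 0.888, adjusted permutation p = 0.00126, rho 0.828, adjusted permutation p = 0.023). Hhex with Rbp4 gave 0.601 without BACE2-KO replicates 1 and 2, the farthest in Hhex. Without BACE2-KO replicate 1 and hIAPP replicate 1, the farthest in Sst, r was 0.744 for Sst with Hhex and 0.731 for Sst with Rbp4. Without BACE2-KO replicate 1 alone, the 3 values of r were 0.708, 0.819 and 0.792, and within genotypes they were 0.946, 0.966 and 0.909. Of the other 13 pairs of members, Irx1 with Rbp4 gave r of 0.734 (adjusted permutation p = 0.0307), 0.657 without hIAPP replicate 1 and hIAPP/BACE2-KO replicate 3, and rho of 0.655 (adjusted permutation p = 0.0906), and no other pair passed either test.

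**Figure D4:**
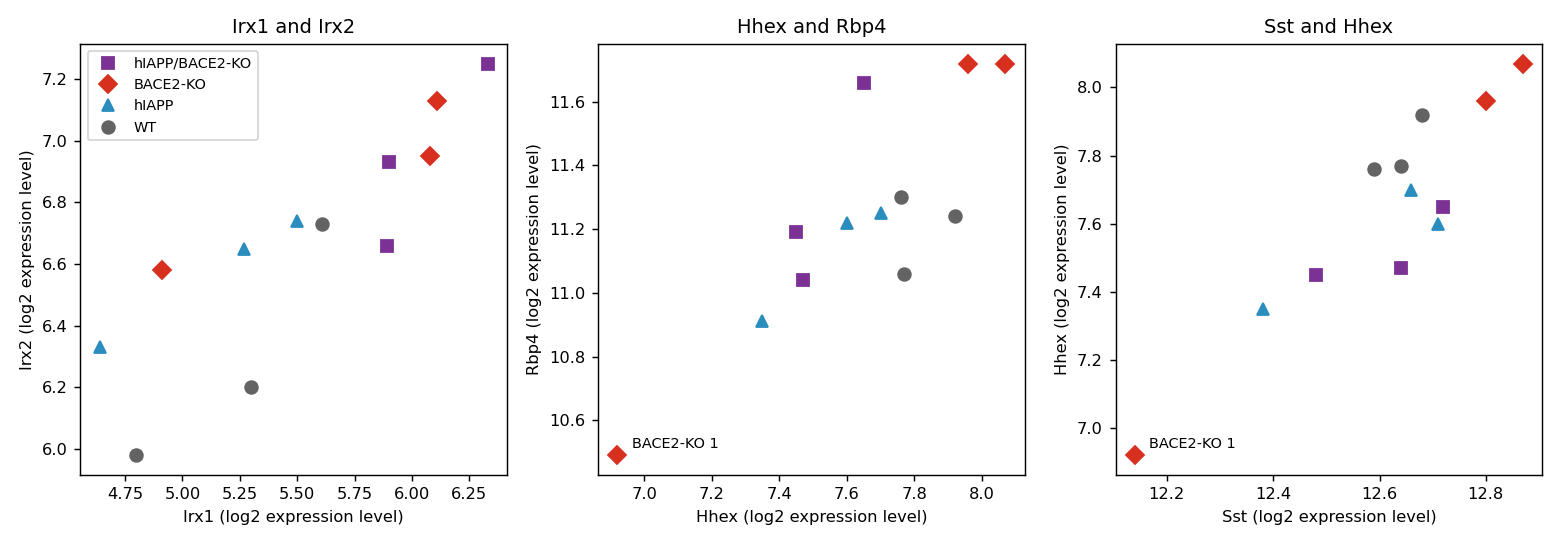
Levels of Irx2 against Irx1, of Rbp4 against Hhex and of Hhex against Sst in 12 arrays, in log2 units, by genotype. The genes of each pair follow each other over the arrays, with r of 0.862, 0.844 and 0.916. BACE2-KO replicate 1 lies at the low end of Hhex, Rbp4 and Sst.

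Promoter windows of 300 bases, from 250 before to 50 after a RefSeq start, are shown for Irx2, Hhex and Rbp4, whose levels followed those of a second member. They are from assembly GRCm38.p6, written along the strand of the gene, with motif matches to either strand in capitals. Hhex and Rbp4 share chromosome 19, with 6 protein-coding genes between them, and Rbp4 has 2 starts in the table.
Irx2, chr13:72628570-72628869, plus strand: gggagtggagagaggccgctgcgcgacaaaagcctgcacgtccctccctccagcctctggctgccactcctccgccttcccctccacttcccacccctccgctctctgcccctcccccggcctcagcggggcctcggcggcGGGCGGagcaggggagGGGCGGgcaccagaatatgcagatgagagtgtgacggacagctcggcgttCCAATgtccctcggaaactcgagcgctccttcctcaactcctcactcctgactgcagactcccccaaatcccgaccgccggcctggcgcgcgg
Hhex, chr19:37434591-37434890, plus strand: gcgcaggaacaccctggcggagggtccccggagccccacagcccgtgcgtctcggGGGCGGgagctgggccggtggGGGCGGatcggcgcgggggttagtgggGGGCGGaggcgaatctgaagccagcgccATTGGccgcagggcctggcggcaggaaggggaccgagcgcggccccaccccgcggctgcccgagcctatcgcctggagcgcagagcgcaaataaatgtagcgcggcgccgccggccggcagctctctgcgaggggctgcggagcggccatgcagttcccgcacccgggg
Rbp4, chr19:38124762-38125061, minus strand: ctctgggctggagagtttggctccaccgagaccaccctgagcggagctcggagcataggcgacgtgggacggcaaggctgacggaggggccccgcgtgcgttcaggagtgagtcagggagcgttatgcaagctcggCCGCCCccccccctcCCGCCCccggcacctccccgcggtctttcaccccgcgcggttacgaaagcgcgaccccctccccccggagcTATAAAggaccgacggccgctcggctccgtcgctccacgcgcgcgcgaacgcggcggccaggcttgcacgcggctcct
Rbp4, chr19:38125272-38125571, minus strand: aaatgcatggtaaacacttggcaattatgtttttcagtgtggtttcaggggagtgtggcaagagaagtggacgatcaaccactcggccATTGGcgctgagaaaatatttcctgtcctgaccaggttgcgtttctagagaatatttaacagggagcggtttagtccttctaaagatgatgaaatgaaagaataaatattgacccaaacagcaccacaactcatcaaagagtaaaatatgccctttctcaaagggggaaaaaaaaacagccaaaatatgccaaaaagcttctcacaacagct
The motifs searched on both strands were the TATA box (TATAAA, in 13.6% of 32851 promoter windows of this length), the CCAAT box (CCAAT, 37.4%), the GC box (GGGCGG, 35.7%) and the cAMP response element (TGACGTCA, 1.79%). Irx2 held 2 GC boxes and 1 CCAAT box and Hhex held 3 GC boxes and 1 CCAAT box on its minus strand. The first Rbp4 window held a TATA box that begins 28 bases before the start and 2 GC boxes, and the second held only a CCAAT box. GC content was 69.0% in Irx2, 75.7% in Hhex, and 72.0% and 40.7% in the Rbp4 windows, against a median of 52.7% over all windows. These matches describe letters in the windows and not binding.

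In BACE2-KO against WT alone, 5 of the 6 members lay above 0, against 52.2% of all genes, and 0 passed the test in limma, against 0.125%. At an unadjusted p under 0.05 there were 2, Irx2 and Ttr, against 6.28% of all genes, and Ttr was the 1 member with all BACE2-KO arrays above all WT arrays, against 6.59%. In hIAPP/BACE2-KO against hIAPP, 4 of 6 lay above 0, against 57.1% of all genes, and 0 passed in limma, against 0.101%. Irx1 alone had an unadjusted p under 0.05, against 8.37% of genes, and alone had groups apart upward, against 6.56%. Pou3f4 had 0.18 and 0.41 and Rbp4 had 0.11 and 0.17 in these 2 comparisons.

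The transgene was set against its absence in the same way. Between hIAPP and WT, 3 of 6 members lay above 0, against 41.3% of all genes, and 0 passed the test in limma, against 0.0156%, nor did any have an unadjusted p under 0.05, against 4.52%. Pou3f4 was the member with groups apart upward (0.40, adjusted p = 0.95, on the stronger probe set alone), against 3.39% of all genes, and Hhex downward (-0.27, adjusted p = 0.95), against 5.77%. Irx1 differed by -0.10, Irx2 by 0.27, Ttr by 0.06 and Rbp4 by -0.07. Between hIAPP/BACE2-KO and BACE2-KO, 3 of 6 lay above 0, against 46.1% of all genes, and 0 passed in limma, against 0%. Ttr alone had an unadjusted p under 0.05 there, against 4.44% of genes, and alone had groups apart downward, against 5.59%, with a difference of -0.28 (95% interval -0.47 to -0.10, adjusted p = 0.962). Averaged over BACE2 status, 3 of 6 lay above 0, against 42.3% of genes, and 0 passed in limma, against 0.0078%, with Pou3f4 alone at an unadjusted p under 0.05, against 7.59%. In the interaction 0 passed in limma, against 0.0078%, with Ttr alone at an unadjusted p under 0.05, against 2.4%. Without BACE2-KO replicate 1, Hhex (-0.38) and Rbp4 (-0.25) had an unadjusted p under 0.05 in limma for the averaged transgene, and Pou3f4 (0.48) did not. In hIAPP/BACE2-KO against BACE2-KO, Hhex (-0.49) and Rbp4 (-0.42) then joined Ttr (-0.33), and in hIAPP against WT Hhex (-0.27) was under 0.05. Still 0 members passed over all genes there, and the share of all genes at that unadjusted p was not counted in this fit.

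With both changes together, hIAPP/BACE2-KO against WT, 5 of 6 members lay above 0, against 49.2% of all genes, and 0 passed in limma, against 0.133%. Irx1 (0.80, SE 0.33, adjusted p = 0.523), Irx2 (0.64, SE 0.22, adjusted p = 0.387) and Pou3f4 (0.81, adjusted p = 0.498) had an unadjusted p under 0.05, against 8.43% of genes, and Irx1 was the member with groups apart upward, against 6.68%. Without hIAPP/BACE2-KO replicate 3, the difference of Pou3f4 was 0.32. Hhex differed by -0.29 (adjusted p = 0.772), with every hIAPP/BACE2-KO array below every WT array, against 8.2% of genes, while Ttr differed by 0.02 and Rbp4 by 0.10. This comparison shares its arrays with those above.

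Other alpha cell genes gave 8 of 9 tested above 0 for averaged loss of BACE2, with a median of 0.08, and 1 passed the test. That was Etv1, an ETS transcription factor, which rose by 0.51 (SE 0.09, adjusted p = 0.024). With BACE2-KO replicate 1 left out, 7 of 9 lay above 0, with a median of 0.16, and Etv1 rose by 0.45 (adjusted p = 0.0428 in limma). Etv1 measured 9.38, 9.50 and 9.73 in hIAPP/BACE2-KO arrays, 10.06, 9.67 and 9.70 in BACE2-KO, 9.05, 9.41 and 9.25 in hIAPP, and 8.94, 9.19 and 9.15 in WT arrays. BACE2-KO arrays all lay above WT, and hIAPP replicate 2 lay within the range of hIAPP/BACE2-KO. Leaving out any 1 of 4 arrays ended the call of Etv1, and its adjusted p was then 0.0785 (WT replicate 1), 0.0525 (WT replicate 2), 0.0553 (hIAPP replicate 3) or 0.0545 (hIAPP/BACE2-KO replicate 3). Sstr2, a somatostatin receptor, had 0.31 (adjusted p = 0.409), Slc7a2, a transporter of cationic amino acids, 0.13 (adjusted p = 0.671), and Peg3, an imprinted zinc finger gene, -0.16 (adjusted p = 0.469). Gcg had 0.03 (adjusted p = 0.861), with means of 13.15, 13.14, 13.15 and 13.08 in hIAPP/BACE2-KO, BACE2-KO, hIAPP and WT islets.

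Other delta cell genes gave 2 of 5 tested above 0, with a median of -0.0017, and 0 passed in limma, with 2 at an unadjusted p under 0.05. Leaving out BACE2-KO replicate 1 put 4 of 5 above 0, with a median of 0.11. The 2 genes were Isl1, a LIM homeobox factor of all islet endocrine cells, with -0.34 (adjusted p = 0.198), and Pcsk1, a prohormone convertase that beta cells also make, with 0.25 (adjusted p = 0.286). Ffar4, a fatty acid receptor, had 0.15 (adjusted p = 0.782) and Ghsr, the ghrelin receptor, -0.06 (adjusted p = 0.935). Ghsr lay between 3.5 and 4.71, near the filter level. The Iroquois relatives Irx3 and Irx6 had 0.01 and -0.09 (adjusted p = 0.988 and 0.799), and Irx4 and Irx5 lay below the filter level. Of the genes that mark other hormone cells, Ppy and Pyy had -0.08 and -0.07, and ghrelin, Ghrl, of epsilon cells fell (fitted difference -2.16, SE 0.26, adjusted p = 0.00208). Its means were below the filter level in both BACE2-deficient groups (3.31 in hIAPP/BACE2-KO and 3.12 in BACE2-KO, against 5.03 in hIAPP and 5.72 in WT), which leaves the extent of the fall unresolved.

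Rbp4 and Ttr carry retinol in blood, so the genes of retinol carriage and retinoic acid were read beside them. Of 13 tested, 4 lay above 0, and 1 passed the test for averaged loss of BACE2. Aldh1a1, a dehydrogenase that makes retinoic acid, rose by 0.71 (SE 0.12, adjusted p = 0.0149). It measured 4.0, 4.0 and 4.54 in hIAPP/BACE2-KO arrays, 4.2, 4.09 and 4.3 in BACE2-KO, 3.56, 3.49 and 3.25 in hIAPP, and 3.74, 3.37 and 3.43 in WT arrays. All BACE2-deficient arrays lay above all others, against 0.717% of all genes. In hIAPP and WT islets Aldh1a1 lay close to the filter level of 3.43, which leaves the size of its rise unresolved. Rxra, a retinoid X receptor, had -0.28 (adjusted p = 0.333), Aldh1a2 0.20 (adjusted p = 0.467) and Rdh11, a retinal reductase, 0.24 (adjusted p = 0.491).

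Ttr also carries thyroid hormone, and 3 of 6 thyroid hormone genes tested lay above 0 with 0 past the test in limma and 0 at an unadjusted p under 0.05. Thra, a thyroid hormone receptor, had -0.17 (adjusted p = 0.537) and Dio1, a deiodinase, 0.47 (adjusted p = 0.548). Of 5 vitamin D genes tested, 2 lay above 0 and 0 passed in limma, with Pdia3 alone at an unadjusted p under 0.05 (-0.45, adjusted p = 0.144), and Vdr, the vitamin D receptor, had -0.03 (adjusted p = 0.968).

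Ttr and Rbp4 are also strong transcripts of liver, and Rbp4 of fat. The mean of 13 liver cell genes ran from 4.70 to 5.31 in hIAPP/BACE2-KO, from 4.61 to 5.06 in BACE2-KO, from 4.57 to 5.44 in hIAPP and from 4.53 to 5.21 in WT arrays. Of 10 liver cell genes tested, 4 lay above 0 for averaged loss of BACE2 and 0 passed in limma, with Hpx alone at an unadjusted p under 0.05 (-0.18). Apoa1, Apoc3 and Cyp2e1 lay below the filter level, as did Adipoq of adipocytes, and the mean of 5 adipocyte genes ran from 4.32 to 4.64 over all arrays. Other genes of these lists lay well above it. Ambp of the liver list ran from 7.7 to 9.41 and Fabp4 of the adipocyte list from 8.01 to 9.15, both highest in BACE2-KO replicate 1.

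For each member, the 2 genes with the highest Pearson r over the 12 arrays among all 12825 were named as most like it, as a description. Osbpl6 and Rab6a were most like Irx1 (r of 0.909 and 0.907), and Ccdc47 and Lars were most like Irx2 (0.939 and 0.931). For Pou3f4 these were 4930506C21Rik and Pa2g4 (0.860 and 0.853), and for Ttr Impact and Drg2 (0.858 and 0.854). Hhex was most like Kdm2b and Sst (0.944 and 0.916), and Rbp4 most like Pdk4 and Slc38a5 (0.947 and 0.936). With deviations from genotype means, r for Ttr was 0.656 with Impact and 0.609 with Drg2, while for the other members it ran from 0.848 to 0.969. None of these 12 genes passed the test for averaged loss of BACE2 in limma, and Ccdc47, Lars and Impact had an unadjusted p under 0.05.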

How the data were processed

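Islet RNA of 12 mouse samples was measured on Affymetrix arrays. The deposited values are log2 levels per probe set, which the authors produced using RMA and affy (per the submitters' processing notes). RMA sets arrays on 1 scale. In such array values, differences of very low and very high probe sets can be compressed. Probe sets were named through the platform annotation. A gene was read on 1 single-symbol probe set, that of highest mean level. The lowest 25% of genes by mean, those below a log2 level of 3.43, were dropped, which left 12825.

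All 12 arrays entered 1 limma model (limma 3.58.1, R 4.3.3) of genotype means, with lmFit and trended eBayes. Calls needed an adjusted p under 0.05, by Benjamini-Hochberg over all genes, two-sided, and SEs are those of the fit. The steps were tested on simulated data. Arrays give no read depth, and their number limits the precision. Correlations were tested with 100000 permutations. Figures were drawn with matplotlib 3.10.9. The members and gene lists were chosen with earlier results of these data known. The named genes were all members, the islet hormones and Bace2, at most 4 genes of a list by the smallest p for averaged loss of BACE2 and any called gene of a list, and 2 genes most like each member. Marker genes below the filter level were named without a test. Alternatives covered the filter, probe set choice, normalization, variance model, groups in the fit, array weights, an acinar covariate, a looser threshold, the replicate number as a block, and each array left out. Array values without a single symbol were not used here.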

Additional observations from a re-analysis of the deposited data

How the results depend on the processing

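Across the 48 differences (6 members in 8 comparisons), 1120 of 1166 alternative values kept their direction and their side of the threshold, 43 reversed and 3 passed the threshold. Of the 6 members, 0 were called for averaged loss of BACE2; 1, Irx1 (0.68, adjusted p = 0.0446), was called with the replicate number as a block, and 2, Irx1 and Irx2, with the acinar mean as a covariate. Over all genes 118 were called in that comparison, 205 with the block, 172 with the acinar covariate and 46 without WT replicate 1 or WT replicate 2. The labels do not say whether the replicate numbers pair the arrays. Of 18 same-number correlations of deviations, 10 exceeded 0.1 (range -0.13 to 0.37). A shared effect of the replicate number was not tested further, and the block is given here alone. Reversals were as follows, none of them called. Ttr in hIAPP/BACE2-KO against WT gave -0.0006 after a further quantile normalization and -0.0033 with array weights. With array weights, Rbp4 gave 0.0177 (hIAPP against WT), 0.0338 (the averaged transgene) and 0.0499 (hIAPP/BACE2-KO against BACE2-KO). With the acinar covariate, Hhex gave 0.0098 in hIAPP/BACE2-KO against hIAPP, Irx2 gave -0.16 in hIAPP/BACE2-KO against BACE2-KO, the averaged transgene gave -0.13 for Irx1 and -0.0086 for Irx2, and the interaction of Rbp4 was -0.014. The cause was not tested.

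Leaving out each array in turn reversed other small differences. For Irx1 the values ran from -0.32 to 0.15 in hIAPP against WT, from -0.0775 to 0.24 for the averaged transgene and from -0.055 to 0.55 in hIAPP/BACE2-KO against BACE2-KO. For Irx2 they ran from -0.093 to 0.20 in hIAPP/BACE2-KO against BACE2-KO. For Pou3f4 they ran from -0.073 to 0.80 in hIAPP/BACE2-KO against hIAPP and from -0.26 to 0.61 in the interaction. For Ttr they ran from -0.13 to 0.022 in hIAPP/BACE2-KO against hIAPP and from -0.028 to 0.052 in hIAPP/BACE2-KO against WT. For Hhex they ran from -0.38 to 0.20 in BACE2-KO against WT, from -0.13 to 0.048 in hIAPP/BACE2-KO against hIAPP, from -0.49 to 0.083 in hIAPP/BACE2-KO against BACE2-KO, from -0.20 to 0.086 for averaged loss of BACE2 and from -0.23 to 0.35 in the interaction. For Rbp4 they ran from -0.10 to 0.52 in BACE2-KO against WT, from -0.012 to 0.30 in hIAPP/BACE2-KO against hIAPP, from -0.42 to 0.19 in hIAPP/BACE2-KO against BACE2-KO, from -0.14 to 0.035 in hIAPP against WT, from -0.085 to 0.23 in hIAPP/BACE2-KO against WT, from -0.25 to 0.059 for the averaged transgene and from -0.35 to 0.27 in the interaction. The list values and correlations without BACE2-KO replicate 1, and the correlations within genotypes, were chosen after seeing the data. The 3 arrays a group limit the precision: the 95% interval of Irx1 in BACE2-KO against WT ran from -0.25 to 1.17.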

Other observations

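Other islet gene groups were read for averaged loss of BACE2 beside the alpha and delta cell genes. Of 15 beta cell identity genes tested, 10 lay above 0 and 1 passed the test in limma: Trpm5, a cation channel of beta cells, rose by 0.61 (SE 0.12, adjusted p = 0.0315). Of 13 islet transcription factors tested, 6 lay above 0 and 1 passed, Etv1, which is also on the alpha cell list. Mnx1, a homeobox factor of beta cells, had -0.32 (adjusted p = 0.148), and Pax6, a factor of all islet endocrine cells, -0.07 (adjusted p = 0.639). Of 11 genes of glucagon secretion and processing tested, 4 lay above 0 and 0 passed in limma, with 2 at an unadjusted p under 0.05.

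Slc38a5, an amino acid transporter that alpha cells of mice raise when glucagon signalling is blocked, was among the genes most like Rbp4 over the arrays. It measured 6.55 in BACE2-KO replicate 1, against 8.77 and 8.71 in the other BACE2-KO arrays. BACE2-KO differed from WT by 0.57 in Slc38a5 (SE 0.48, adjusted p = 0.981), and by 1.30 without that array (adjusted p = 0.236). The other BACE2-deficient group did not share this rise: hIAPP/BACE2-KO differed from hIAPP by 0.07 (adjusted p = 0.988). It differed from BACE2-KO by -0.45 (adjusted p = 0.971), and by -1.18 without BACE2-KO replicate 1 (adjusted p = 0.999).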
